A study of Homo sapiens with 12 samples.

Results

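CDX2, HNF4A, VIL1, KRT20, MUC13, TSPAN8 and LYZ, 7 of a list of 9 genes of intestinal differentiation, were followed across 3 knockouts of HCT116, an established human colorectal carcinoma line. Members were taken by symbol from the 12756 genes of each of 3 tables of fold changes. The other 2, CDX1 and TFF3, did not match a row and are not analysed here. Polyadenylated RNA came from 4 groups of 3 labelled replicates, all harvested 48 hours after seeding: parental HCT116, cells with genotype AGO2_KO, cells with genotype ANKRD52_KO, and cells with genotype ANKRD52;CSNK1A1_KO, called the double knockout below. AGO2 is the Argonaute protein that holds microRNAs, ANKRD52 is a regulatory subunit of the phosphatase PP6, and CSNK1A1 is casein kinase 1 alpha, which marks beta-catenin for destruction. The labels do not say whether a knockout was 1 clone or a pool, nor whether replicates were separate cultures, and a p-value therefore speaks only of how far these particular libraries scatter, perhaps for technical reasons. No library has CSNK1A1 removed alone, so the double knockout was also set against the ANKRD52 knockout.

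The intestinal epithelium renews from crypt stem cells that become absorptive enterocytes or secretory goblet, Paneth and enteroendocrine cells. The caudal homeobox factors CDX1 and CDX2 and the nuclear receptor HNF4A hold the intestinal programme of transcription. Villin (VIL1) bundles actin in the microvilli of the brush border, KRT20 is a keratin of mature surface cells, MUC13 is a mucin spanning the cell membrane, TSPAN8 is a tetraspanin of the epithelial surface, LYZ encodes the lysozyme of Paneth cells and of macrophages, and TFF3 is a goblet cell peptide.

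The tables hold no value per library, so each member is shown first by the level it had in each group, in CPM, a read count scaled to the total of its library. These group levels were implied by the deposited mean CPM together with the fold changes, taking the 4 groups as equal in size, and have no error of their own. The spread is carried by an approximate standard error (SE) of each log2 fold change. A group with 3 reads in all lies at about 0.0345 CPM. Where the compared group lay under that level a fold is given only as a bound, with that group set there and sampling error left out. None is given where 1 group lay under it and the other was also under it or just above it. A gene was called at an adjusted p under 0.05.

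In the library checks, CSNK1A1 RNA fell by 2.42 on the log2 scale (SE 0.35, adjusted p = 1.71e-10) in the double knockout in the authors' deposited table. AGO2 RNA fell by 1.07 (SE 0.36) in the AGO2 knockout and was only just called (adjusted p = 0.0477) in the authors' deposited table. ANKRD52 RNA stood at 0.03 in the ANKRD52 knockout (adjusted p = 0.915), fell in the double knockout (-0.65, adjusted p = 2.32e-05) and rose in the AGO2 knockout (0.85, adjusted p = 8.78e-07) in the authors' deposited tables. RNA level does not check loss of the protein.

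Of the 7 members, 6 were higher in the double knockout than in the parental line and 0 were lower in the authors' deposited table, where 43.0% of all genes were called and 22.9% were called higher. The member not called was KRT20. In the AGO2 knockout 0 of 7 were called by the authors' edgeR test (2 at an unadjusted p under 0.05, CDX2 and MUC13), against 6.10% of all genes. In the ANKRD52 knockout 0 of 7 were called as well (2 at an unadjusted p under 0.05, CDX2 and LYZ), against 13.7% of all genes. The median log2 fold change of the members in the double knockout was 5.91, beside 0.01 over all genes. VIL1, MUC13, TSPAN8 and LYZ stood at 0.451 CPM or less outside the double knockout. If genes entered the tables by their level, these were there only through the double knockout. The count and the median there may owe part of their size to that, which was not tested. The members were also chosen with earlier results of these data known, so the count is no independent support. In bulk RNA, more cells with a gene on and more RNA of it per cell cannot be told apart.

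**Figure D1:**
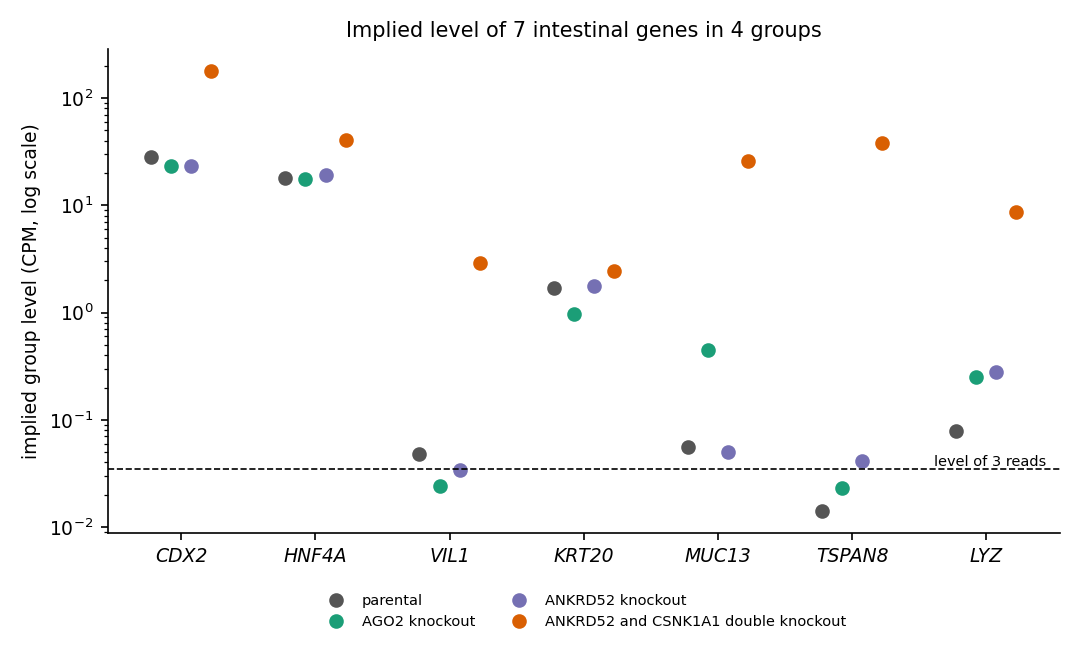
Implied level of each of 7 genes in the 4 groups, in CPM on a log axis, 1 point per group. The dashed line is the level of 3 reads over a group (0.0345 CPM). The double knockout point is the highest for every gene, from 2.44 CPM for KRT20 to 178 CPM for CDX2, while VIL1 and TSPAN8 lie near the line in the other 3 groups.

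VIL1 and LYZ, which rose, had no upstream window in the reference used, and those of HNF4A, which rose too, held no match and are not printed. Upstream sequences of 4 members are shown, 3 that rose and KRT20, which was not called. Each is the 250 bases before a start site (RefSeq, GRCh38.p14), read 5′ to 3′ on the strand of the gene, which is the minus strand in all 4. Capitals mark matches on either strand to TTTTAT (core of the CDX motif), CAAAGTCCA (HNF4 motif) or CTTTGA (core of the TCF motif). The HNF4 and TCF letters share CAAAG, and TTTTAT read on the other strand shares letters with the TATA box. The windows are chr13:27969316-27969565 for CDX2, chr3:124934752-124935001 for MUC13, chr12:71157810-71158059 for the more downstream of 2 TSPAN8 starts, and chr17:40885243-40885492 for KRT20.
CDX2: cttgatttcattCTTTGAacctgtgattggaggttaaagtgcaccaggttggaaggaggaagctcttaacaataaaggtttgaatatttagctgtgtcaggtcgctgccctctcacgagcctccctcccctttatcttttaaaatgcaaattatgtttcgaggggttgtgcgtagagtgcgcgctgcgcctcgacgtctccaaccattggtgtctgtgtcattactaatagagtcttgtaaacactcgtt
MUC13: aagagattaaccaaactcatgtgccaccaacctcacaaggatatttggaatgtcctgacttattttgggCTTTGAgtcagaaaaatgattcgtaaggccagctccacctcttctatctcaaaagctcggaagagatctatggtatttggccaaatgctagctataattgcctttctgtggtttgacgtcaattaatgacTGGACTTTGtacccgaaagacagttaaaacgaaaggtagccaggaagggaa
TSPAN8: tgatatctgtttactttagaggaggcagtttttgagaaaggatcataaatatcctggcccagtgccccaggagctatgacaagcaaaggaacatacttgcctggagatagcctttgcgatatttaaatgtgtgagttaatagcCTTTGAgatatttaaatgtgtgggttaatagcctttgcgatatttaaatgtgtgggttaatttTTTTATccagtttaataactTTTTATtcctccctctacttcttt
KRT20: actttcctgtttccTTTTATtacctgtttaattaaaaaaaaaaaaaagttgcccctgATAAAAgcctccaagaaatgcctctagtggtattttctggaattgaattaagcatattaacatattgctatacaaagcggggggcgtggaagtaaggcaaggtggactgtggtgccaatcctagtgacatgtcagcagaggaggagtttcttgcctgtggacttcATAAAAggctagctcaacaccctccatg

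The HNF4 letters stood once among these windows, 51 bases before the MUC13 start, and were found in 0.325% of 35116 promoter windows of this length. TTTTAT was found 2 times before the TSPAN8 start, at 44 and 24 bases, and 3 times before KRT20, at 236, 193 and 28 bases. It was found in 14.8% of all windows. CTTTGA was found once each for CDX2 (238 bases before the start), MUC13 (181 bases) and TSPAN8 (107 bases), and in 11.2% of all windows. The upstream TSPAN8 start and both HNF4A starts in the table held none of these letters. KRT20, the member that was not called, had the most CDX letters of the windows printed. A match describes the letters only, and its part in the values was not tested.

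CDX2 and HNF4A, the transcription factors, were expressed in all 4 groups and rose in the double knockout. The implied CDX2 level was 28.0 CPM in parental cells, 23.4 in the AGO2 knockout, 23.2 with ANKRD52 knocked out and 178 in the double. Only the double knockout stood apart. The authors' deposited table puts the rise at 6.36-fold (2.67 on the log2 scale, SE 0.12, adjusted p = 1.93e-105). In the AGO2 and ANKRD52 knockouts CDX2 stood at -0.26 and -0.27 (SE 0.12 each, adjusted p = 0.174 and 0.116) in the authors' deposited tables. Against the ANKRD52 knockout the double was 7.65-fold higher (difference of the deposited log2 fold changes 2.94, SE 0.12, approximate adjusted p = 2.06e-130).

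HNF4A, which binds DNA with fatty acids in its ligand pocket and drives enterocyte genes, stood at 18.0 CPM in parental cells, 17.7 in the AGO2 knockout, 19.1 with ANKRD52 knocked out and 40.3 in the double. Again 3 groups lay together and the double knockout above them. The authors' deposited table gives a 2.24-fold rise there (log2 fold change 1.17, SE 0.14, adjusted p = 5.06e-15). Values in the AGO2 and ANKRD52 knockouts were -0.02 and 0.09 (adjusted p = 0.960 and 0.748) in the authors' deposited tables. The double was 2.11-fold higher than the ANKRD52 knockout (difference of log2 fold changes 1.08, SE 0.14, approximate adjusted p = 7.68e-13). HNF4A has 2 annotated starts and an antisense neighbour, and a gene total does not tell its transcripts apart.

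VIL1 was close to the limit of detection in 3 groups. Its implied level was 0.0485 CPM in parental cells, 0.0243 in the AGO2 knockout, 0.0340 with ANKRD52 knocked out and 2.92 in the double. The AGO2 and ANKRD52 knockouts lay under the level of 3 reads, so no fold is given for them (adjusted p = 0.644 and 0.804 in the authors' deposited tables). In the double knockout the authors' deposited table gives a 60.3-fold rise (log2 fold change 5.91, SE 0.44, adjusted p = 2.82e-38), with the parental level just above that of 3 reads. With the ANKRD52 knockout taken at the level of 3 reads, the double was 84.8-fold higher (approximate adjusted p = 5.81e-15). This ratio, 6.41 on the log2 scale, leaves out sampling error. The 95% interval of the difference of log2 fold changes starts lower, at 4.90. The annotated spans of VIL1 and USP37 overlap, and whether reads were counted by strand is not given in the sources used here. The authors' deposited table gives USP37 itself -0.09 on the log2 scale in the double knockout (adjusted p = 0.480).

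KRT20 was the exception among the structural genes. It stood at 1.70 CPM in parental cells, 0.980 in the AGO2 knockout, 1.75 with ANKRD52 knocked out and 2.44 in the double. The double was the highest group and the AGO2 knockout the lowest. The authors' deposited table gives 0.52 on the log2 scale for the double knockout (SE 0.42, 95% interval -0.29 to 1.34, adjusted p = 0.317). A rise as large as that of CDX2 lies outside this interval. In the AGO2 and ANKRD52 knockouts the authors' deposited tables give -0.79 and 0.04 (adjusted p = 0.270 and 0.968). The double was 2.49-fold above the AGO2 knockout, the lowest group (difference of log2 fold changes 1.32, SE 0.42, approximate adjusted p = 0.00657), but was not called against the ANKRD52 knockout (0.48, approximate adjusted p = 0.396). The difference from the AGO2 knockout was lost with an F distribution (adjusted p = 0.0506) and with the sum of both squared errors as variance (adjusted p = 0.0977).

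MUC13 and TSPAN8, both proteins of the apical surface, went from a trace to a moderate level. MUC13 had an implied level of 0.0554 CPM in parental cells, 0.451 in the AGO2 knockout, 0.050 with ANKRD52 knocked out and 26.0 in the double. The AGO2 knockout lay between 2 groups near the detection limit and the double. In the double knockout the authors' deposited table gives a 469-fold rise (log2 fold change 8.87, SE 1.48, 95% interval 5.98 to 11.76, adjusted p = 2.64e-08). In the AGO2 knockout MUC13 stood at 3.03 (SE 1.21) in the authors' deposited table, with an unadjusted p of 0.0124 that did not pass adjustment (adjusted p = 0.112). Its value in the ANKRD52 knockout was -0.15 (SE 1.27, adjusted p = 0.963) in the authors' deposited table. Both levels in that last comparison are close to the limit, at 5.05 reads over 3 libraries in parental cells and 4.52 in the ANKRD52 knockout. The 3 SEs were wider than those of 99.8% of genes of like mean expression, a mean that comes mostly from the double knockout. By the same measure the share in the double knockout was 99.4% for TSPAN8, 98.0% for LYZ and 84.3% for VIL1. Whether 1 library carries the spread was not tested. The double stood 57.6-fold above the AGO2 knockout (approximate adjusted p = 9.35e-05).

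TSPAN8 stood at 0.0142 CPM in parental cells, 0.0229 in the AGO2 knockout, 0.0415 with ANKRD52 knocked out and 38.1 in the double. The first 2 of these lie under the level of 3 reads and the third close to it. With parental cells therefore taken at the level of 3 reads, TSPAN8 was 1106-fold higher in the double knockout (adjusted p = 1.19e-39 in the authors' deposited table). This ratio, 10.11 on the log2 scale, leaves out sampling error. The 95% interval of the deposited log2 fold change starts lower, at 9.75. The AGO2 and ANKRD52 knockouts were not called (adjusted p = 0.824 and 0.470 in the authors' deposited tables). Over the ANKRD52 knockout the ratio of implied levels was 918 (approximate adjusted p = 5.85e-18).

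LYZ, the lysozyme gene, had an implied level of 0.0788 CPM in parental cells, 0.252 in the AGO2 knockout, 0.279 with ANKRD52 knocked out and 8.63 in the double. Both single knockouts lay above parental cells, a difference not called, and far below the double. Parental cells were close to the detection limit, at an implied 7.34 reads over 3 libraries. The AGO2 knockout had 24.3 and the ANKRD52 knockout 26.9. The authors' deposited table gives a 109-fold rise in the double knockout (log2 fold change 6.77, SE 0.90, adjusted p = 1.27e-12). In the AGO2 and ANKRD52 knockouts the log2 fold changes were 1.68 and 1.82 (SE 0.86 and 0.85) in the authors' deposited tables, with unadjusted p of 0.0503 and 0.0321, and neither passed adjustment (adjusted p = 0.234 and 0.143). The double was 31.0-fold above the ANKRD52 knockout (difference of log2 fold changes 4.95, SE 0.87, approximate adjusted p = 2.20e-07).

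**Figure D2:**
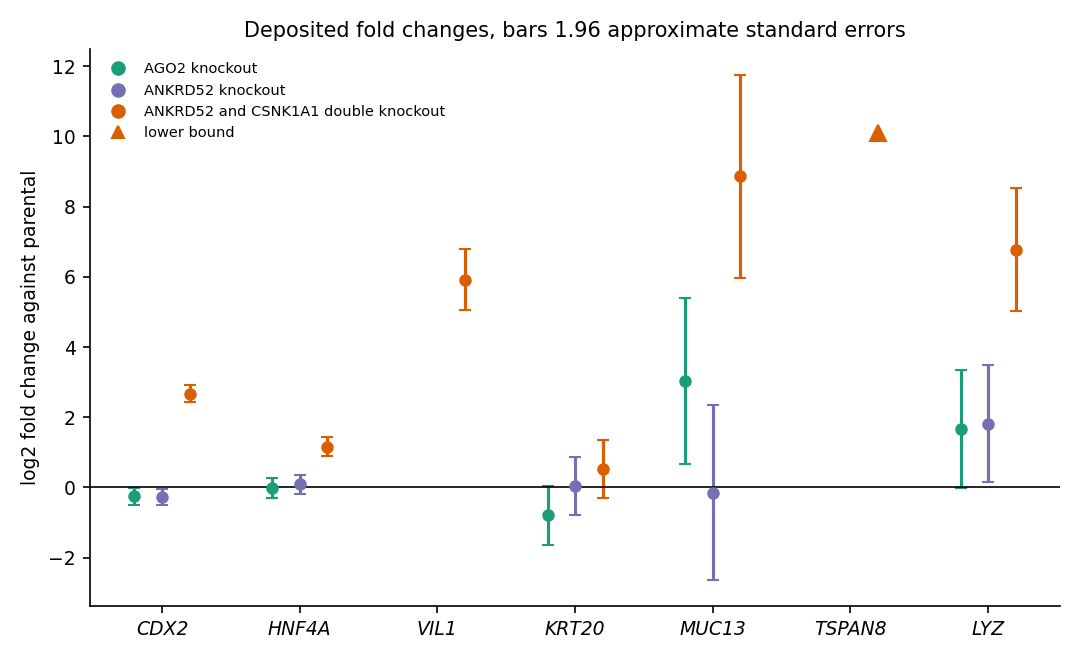
Deposited log2 fold change against parental cells (vertical axis) for 7 genes, with bars of 1.96 approximate standard errors. The triangle for TSPAN8 is a lower bound with parental cells at the level of 3 reads, and it leaves out sampling error. Points are left out where 1 of the groups lay under the level of 3 reads and the other under or just above it. CDX2 and HNF4A have short bars and MUC13 the longest, from 5.98 to 11.76 in the double knockout.

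Over the members as a whole, 6 of 7 were higher in the double than in the ANKRD52 knockout, where 34.3% of all genes were called and 18.5% called higher. Against the AGO2 knockout 7 of 7 were higher (6 of 7 under those same 2 settings, without KRT20), with 42.3% of all genes called and 22.3% called higher. Between the ANKRD52 and AGO2 knockouts 0 of 7 were called by the approximate test built on the deposited edgeR tables, against 9.32% of all genes (2 at an unadjusted p under 0.05). Those were MUC13, lower in the ANKRD52 knockout (difference of log2 fold changes -3.17, SE 1.24, approximate adjusted p = 0.0843), and KRT20, higher there (0.84, SE 0.43, approximate adjusted p = 0.212). These comparisons share libraries, so their counts are not independent of each other. Members that may be in the tables only through the double knockout limit the counts that involve it here too. So does the choice of members with earlier results known. In the order of levels, then, the double knockout was the highest group for every member, and no difference among the 3 lower groups was called for any of them.

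Of 15 further intestinal transcription factors measured (9 more were not matched), 3 rose and 4 fell in the double knockout, with a median log2 fold change of -0.20 beside 0.01 over all genes. The share called is near the 43.0% of all genes called there, so the count says nothing particular of these factors. KLF5, a factor of proliferating crypt cells, rose by 2.31 (SE 0.16) and SOX9, a crypt base factor, by 1.57 (SE 0.20) in the authors' deposited table. The pioneer factor FOXA1 rose by 1.30 (SE 0.27) in the authors' deposited table. Among those that fell were the Wnt effector TCF7L2 (-1.07, SE 0.16) and GFI1 (-0.41, SE 0.17, adjusted p = 0.0473) in the authors' deposited table. HNF4G, the close relative of HNF4A, was at -0.58 (SE 0.25, adjusted p = 0.0516) and GATA6 at -0.29 (adjusted p = 0.158) in the authors' deposited table. In the ANKRD52 knockout SOX9 (0.71) and KLF5 (0.41) rose and PRDM1 (-2.29), ELF3 (-1.10) and KLF4 (-0.67) fell in the authors' deposited table. Over all genes 13.7% were called there. In the AGO2 knockout 0 of 15 were called by the authors' edgeR test (4 at an unadjusted p under 0.05). Only 6.10% of all genes were called there, so this count says nothing particular of these factors.

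Among absorptive cell genes, 3 of 9 measured besides VIL1 rose in the double knockout and 0 fell, while 27 were not matched. Over all genes 43.0% were called and 22.9% were called higher, so this count does not stand apart either. The sodium glucose transporter SLC5A1 rose by 6.12 (SE 0.68, from 0.151 CPM implied in parental cells to 10.5) in the authors' deposited table. USH1C, a scaffold of the links between microvilli, rose by 0.95 (SE 0.13) and the actin bundler PLS1 by 0.37 (SE 0.13, adjusted p = 0.0179) in the authors' deposited table. The microvillus linker EZR stood at 0.12 (adjusted p = 0.535), the bundler ESPN at -0.20 (adjusted p = 0.185) and CA2 at -0.34 (adjusted p = 0.235) in the authors' deposited table. The list median was 0.37. In the AGO2 knockout 1 of the 9 rose, DPP4 (0.85, adjusted p = 0.0464), and in the ANKRD52 knockout EPS8 (0.66) and USH1C (0.42) rose and ESPN (-0.42) fell in the authors' deposited tables. Over all genes 6.10% were called in the AGO2 knockout and 13.7% in the ANKRD52 knockout.

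Of 6 further genes of the colonic epithelial surface, 4 rose in the double knockout and 0 fell (median 1.39), beside 22.9% of all genes called higher. They were the ion cotransporter SLC12A2 (1.85, SE 0.22) and the keratins KRT18 (1.55, SE 0.33), KRT8 (1.53, SE 0.29) and KRT19 (1.24, SE 0.21) in the authors' deposited table. EPCAM, an epithelial adhesion molecule, had 0.13 (adjusted p = 0.596) there and fell in the ANKRD52 knockout (-0.81, SE 0.19), per the authors' deposited tables. Another 9 genes of this list, among them CDH17, LGALS4 and GPA33, were not matched. As a check of the labelled cell type, 7 of 10 markers of colonic epithelium were in the tables, without CDH17, LGALS4 and GPA33. EPCAM, KRT8, KRT18, KRT19 and CDH1 stood between 114 and 1530 CPM in parental cells, while CDX2 was at 28.0 and VIL1 at 0.0485 CPM. The high markers are shared by many epithelia, so the check speaks of epithelial cells more than of colonic ones.

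Secretory genes were mostly not matched. Over all genes 43.0% were called in the double knockout and 22.9% called higher, so the small counts below say nothing particular of these lists. Of 4 goblet and mucus genes measured besides MUC13, 1 rose in the double knockout, the mucin MUC20 (0.75, SE 0.22, adjusted p = 0.00216), while MUC1 (0.03) and MUC4 (0.02) were not called in the authors' deposited table. Of 3 Paneth and deep crypt genes besides LYZ, SOX9 and the ephrin receptor EPHB3 (0.90, SE 0.17) rose in the double knockout, and EPHB2 stood at -0.36 (adjusted p = 0.0956) in the authors' deposited table. EPHB2 (-0.64, adjusted p = 0.0164) and EPHB3 (-0.61, adjusted p = 0.0161) fell in the AGO2 knockout in the authors' deposited table. The share of all genes called there was 6.10%. Of 3 enteroendocrine genes, PAX6 rose (0.64, adjusted p = 0.0488) and the granin SCG2 fell (-1.65, SE 0.47) in the double knockout in the authors' deposited table.

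Of 14 crypt stem cell genes measured, 6 rose and 3 fell in the double knockout (median 0.01), beside 43.0% of all genes called and 22.9% called higher. SOX9, EPHB2 and EPHB3 are also on the Paneth list, and SOX9 is on the transcription factor list too, so these counts share genes. The Wnt receptor regulator ZNRF3 (2.33, SE 0.15), TNFRSF19 (2.68, SE 0.49) and AXIN2 (3.54, SE 0.36) rose in the authors' deposited table. CD44, a cell surface hyaluronan receptor (-1.49, SE 0.18), LRIG1 (-1.15, SE 0.22) and CDCA7 (-0.68, SE 0.13) fell in the authors' deposited table. In the ANKRD52 knockout AXIN2 (1.53, SE 0.33) and SOX9 (0.71) rose and EPHB2 (-0.55) fell in the authors' deposited table. The share of all genes called there was 13.7%. The only gastric or foregut gene measured of 13 was ANXA10, at -7.95 (SE 1.02) in the double knockout in the authors' deposited table.

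**Figure D3:**
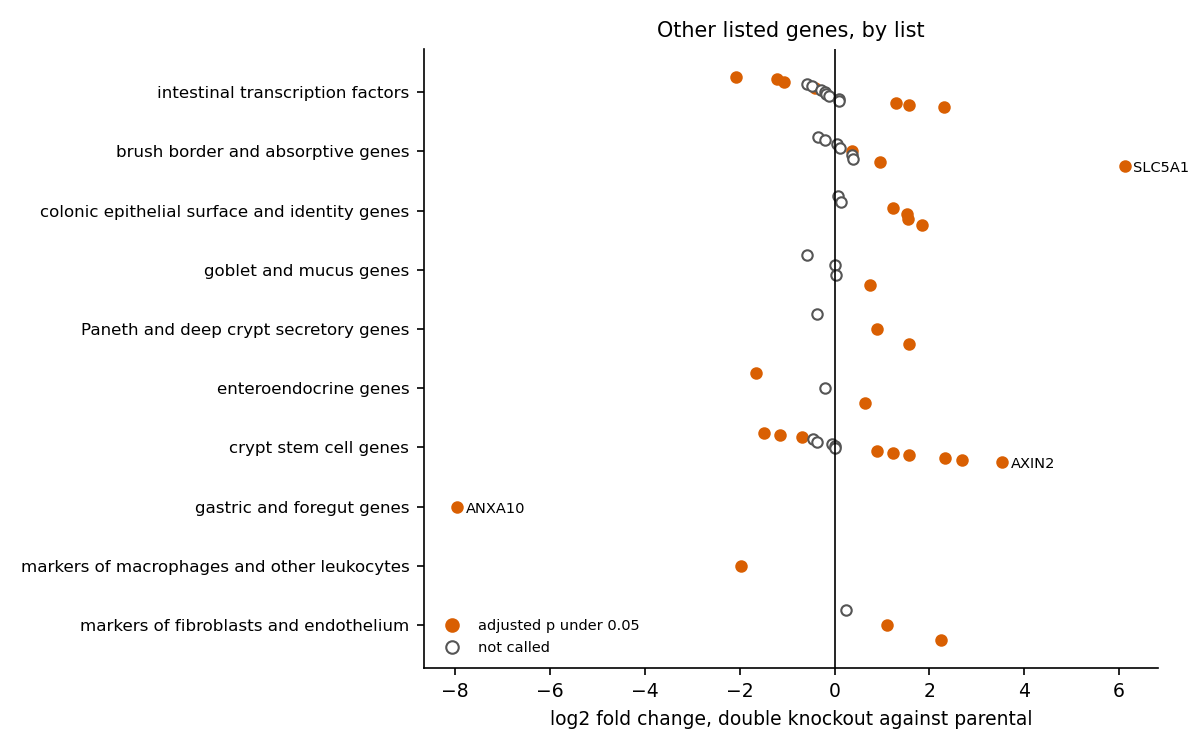
Deposited log2 fold change in the double knockout against parental cells (horizontal axis) for the other genes of each list, 1 point per gene, filled where the adjusted p was under 0.05. SLC5A1 (6.12) and ANXA10 (-7.95) lie farthest from 0, and the transcription factors and crypt stem cell genes lie on both sides of it.

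LYZ is also a gene of macrophages, so markers of other cell types were read beside it. Of 13 markers of macrophages and other leukocytes 1 was in the tables, CD68, which fell by 1.96 (SE 0.33) in the double knockout in the authors' deposited table. The implied level of CD68 was 4.18 CPM in parental cells, 6.32 in the AGO2 knockout, 2.37 with ANKRD52 knocked out and 1.07 in the double. The other 12, PTPRC and CD14 among them, were not matched and are not analysed here. Of 11 markers of fibroblasts and endothelium 3 were measured, with a summed level of 13.6 to 13.8 CPM in the first 3 groups and 19.1 in the double. Of these VWF (2.25) and KDR (1.10) rose in the double knockout in the authors' deposited table, and COL1A1 was not called. COL1A1 made most of the summed level, at 11.9 CPM in parental cells and 14.1 in the double knockout. Over all genes 22.9% were called higher there. Their part in the members' values was not tested.

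LYZ and TSPAN8 lie on the same arm of chromosome 12, 1.78 Mb apart in GRCh38, with 6 measured genes between them. Those 6 had a median log2 fold change of 0.00 in the double knockout (lowest -0.21, highest 0.65), and 2 rose and 0 fell in the authors' deposited table. Over all genes 22.9% were called higher there, so this count does not stand apart. The 19 nearest measured genes that are not members had a median of 0.12 around TSPAN8 and -0.02 around LYZ. None of them reached the change of the member in their midst. MDM2, the p53 antagonist, is near both and had 1.54 in the authors' deposited table, the highest value around TSPAN8. Around LYZ the highest was GRIP1 (2.87), again from the authors' deposited table.

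Neighbours of the other risen members also stayed near 0 in the middle of their range. Over 20 genes each, the median log2 fold change in the double knockout was 0.08 around CDX2, 0.08 around MUC13, 0.00 around VIL1 and 0.06 around HNF4A. The highest neighbours were 0.42 for CDX2, 1.25 for MUC13 and 1.19 for VIL1, all below the member. Around HNF4A the protease inhibitor SLPI (4.66) stood above the member and SDC4 (1.17) level with it in the authors' deposited table.

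Of the 20 neighbours of KRT20 on chromosome 17, 12 rose and 2 fell in the double knockout (median 0.32) in the authors' deposited table, where 43.0% of all genes were called and 22.9% called higher. Of the 10 keratin genes among them 8 rose and 1 fell, while KRT20 itself was not called. KRT9, KRT13, KRT14, KRT16 and KRT36 stood at 0.458 CPM or less in parental cells. If genes entered the tables by their level, these keratins may be there only through the double knockout. That limits both counts and was not tested. KRT23, the next measured gene, rose by 3.64, KRT13 by 4.87 and KRT15 by 3.27 in the authors' deposited table. For KRT14 and KRT36 the parental level lay below 3 reads and their rise is left without a number. KRT14 and KRT16 have near-identical relatives, so their values are uncertain. KRT10 fell (-0.40, adjusted p = 0.0165) in the authors' deposited table.

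**Figure D4:**
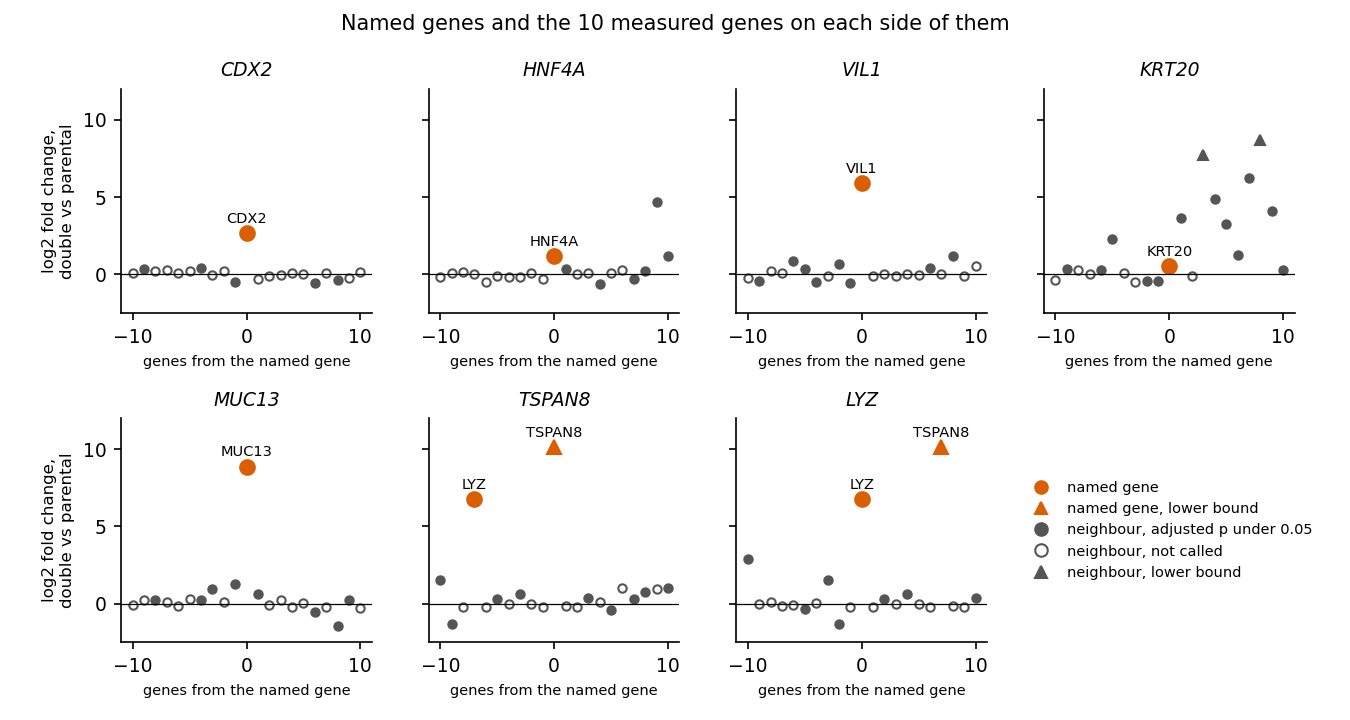
Log2 fold change in the double knockout against parental cells (vertical axis) for each of 7 genes and up to 10 measured genes on each side, by gene order (horizontal axis). Triangles are lower bounds. CDX2, VIL1, MUC13, TSPAN8 and LYZ stand above every neighbour that is not a member, while 9 neighbours stand above KRT20.

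Genes with the most similar fold changes were sought by the distance over the 3 log2 fold changes among the 11877 genes whose deposited mean log2 CPM reached 1, and the 3 nearest are named. For CDX2 they were PARM1 (distance 0.17), SLC7A8 (0.21) and SULT2B1 (0.34). For HNF4A they were QSOX1 (0.05), PJA1 (0.08) and ITGB5 (0.08). The nearest to LYZ were ABP1 (0.90), EHF (1.02) and FAT2 (1.29), and to VIL1 LOC100505839 (1.26), NOTUM (1.41) and SLC16A4 (1.43). MUC13 was nearest to LCN2 (1.16), ALPPL2 (1.62) and KRT14 (1.72). TSPAN8 was nearest to KCNB2 (1.19), ARHGEF38 (1.71) and PLEKHS1 (2.17). ALPPL2, KRT14, KCNB2 and ARHGEF38 lay below 3 reads in parental cells, as TSPAN8 did, so these distances rest on fitted values. The distances of MUC13, VIL1, TSPAN8 and LYZ were larger than those of CDX2 and HNF4A, and each of these 4 genes had an SE near or above 0.44 in the double knockout. LCN2, a secreted siderophore-binding protein, had 2.83 in the AGO2 knockout and 8.11 in the double in the authors' deposited tables, and EHF, an epithelial ETS factor, had 6.55 in the double.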

How the data were processed

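PolyA RNA of 12 HCT116 libraries was measured, 3 per group. Libraries were made with a stranded kit, per the labels' protocols. Tools listed without roles in the submitters' processing notes are edgeR 3.8.6, featureCounts 1.4.6 and TopHat2 2.0.12, with the build hg19. The deposited tables hold, per the file headers, a log2 fold change, a mean log2 CPM, a likelihood ratio score, a p-value and its adjusted value, all made by the authors. Library totals are not given in the sources used here. A single library size for all libraries was inferred from the fold changes of genes without reads in a group, and it sets the level of 3 reads and the bounds but no interval. The p-values of 12756 of 12756 genes in each table equalled chi-square tails of the ratio, and adjusted values were Benjamini-Hochberg values over all genes.

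Each standard error was taken as the size of the log2 fold change divided by the root of its likelihood ratio. Knockouts were compared by subtracting log2 fold changes, with a two-sided normal test and adjustment over all genes. The variance was the average of the 2 squared errors. The procedure was tried on simulated data in which all groups of a gene had the same spread. Such data cannot show how it does for members near the detection limit in some groups. The comparisons with the AGO2 knockout were added after seeing the data. The level of 3 reads assumes a prior count of 0.125 and rests on 2 genes whose fold change was 0 in a pair of tables. Genes were placed by the RefSeq table of GRCh38.p14, 11543 by symbol, 965 by synonym and 248 unmatched. Positions served for gene order, since the authors' build differs. Lists other than the members leave the members out. The count tests of the design could not be run, and its form for fold change tables was used. The members and lists were chosen with earlier results of these data known. Named were all members, up to 4 called genes per list and comparison with the smallest p, the 3 nearest patterns, and neighbours where described. Some list genes that this rule would name are counted but not reported here by name. Other list genes and single neighbours named, called or not, were chosen after their values were seen. Alternatives were other thresholds, an F distribution, an expression filter, centring, a wider variance and, chosen after seeing the data, a prior count of 2 taken off the mean and these same settings for the comparisons with the AGO2 knockout. Scripts ran under matplotlib 3.10.9, pandas 2.3.3, scipy 1.17.1, numpy 2.4.6 and Python 3.11.15.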

Additional observations from a re-analysis of the deposited data

How the results depend on the processing

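The counts of members called, 0, 0 and 6 of 7 against parental cells and 6 of 7 for the double against the ANKRD52 knockout, were the same at an adjusted p under 0.01, with the ratio referred to an F distribution (1 and 8 degrees of freedom), after centring on the median and, for the last, with the sum of both squared errors. With genes under a mean log2 CPM of 1 left out, VIL1 and KRT20 were not tested and the other 5 were called in the last 2 comparisons. That filter gives MUC13, TSPAN8 and LYZ no support, since they pass it only through their level in the double knockout. For the AGO2 and ANKRD52 knockouts a stricter threshold or the F distribution could only remove calls, so the 0 of 7 there says nothing of stability, and only centring could change a direction. Against the AGO2 knockout, where the settings were added after seeing the data, the 7 of 7 became 6 of 7 with the F distribution and with the sum of squared errors, each time through KRT20 (adjusted p = 0.0506 and 0.0977, range over its settings 0.00652 to 0.0977). The calls over all genes changed more: the F distribution called 0 against 778 for the AGO2 knockout, 3 against 1742 for the ANKRD52 knockout, 3784 against 5486 for the double and 2646 against 4374 for the double against the ANKRD52 knockout. At an adjusted p under 0.01 they were 274, 874, 4053 and 3122, and the sum of squared errors called 2141 in the last. Against the AGO2 knockout the sum of squared errors called 2836 against 5397 genes for the double. For the ANKRD52 knockout 1189 became 555 at 0.01, 0 with the F distribution and 99 with the sum. Of the counts for the other lists, 7 fell by more than 1.5 times at an adjusted p under 0.01, through the loss of DPP4, EPHB2 and EPHB3 in the AGO2 knockout, EPHB2 in the ANKRD52 knockout, and PAX6 and KDR in the double (PAX6 also against the ANKRD52 knockout). Taking a prior count off the mean CPM moved implied levels by at most 7.78% (VIL1). No paired analysis was possible because the tables used hold no value per library, and leaving out replicates was not run for the same reason.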
